A study of Caenorhabditis briggsae with 6 samples.

Results

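Vulval induction genes in larvae of the nematode Caenorhabditis briggsae are described here through 3 genes of the EGF and Notch pathways: Cbr-lin-3, Cbr-lin-7 and Cbr-dsl-3. They were chosen by name and read from the table of gene counts as WBGene00028342, WBGene00032283 and WBGene00034321, so they are 3 of 23169 genes. The identifiers of the genes were paired with their symbols through the study's supplementary lists of genes called in Muv mutants. Cbr-lin-3 and Cbr-lin-7 stand there among the genes called for Cbr-ivph-3, that is, on these same libraries, and Cbr-dsl-3 among those called for another mutant, Cbr-spr-4, alone. For Cbr-lin-3 and Cbr-lin-7 the lists for Cbr-ivph-3 are therefore not independent evidence of a direction. On libraries of other mutants, Cbr-lin-3 was also listed as higher for Cbr-spr-4 and Cbr-htz-1, and Cbr-lin-7 as lower for Cbr-spr-4. The study cites earlier RT-qPCR that found raised Cbr-lin-3 in all 3 of these mutant strains, Cbr-ivph-3 among them.

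RNA was sequenced from whole hermaphrodites of strain PS9217, which carries Cbr-ivph-3(sy5216), and of the wild-type strain AF16, with 3 biological replicates of each genotype. Both were grown at 20 °C on E. coli OP50, synchronized by bleaching and collected at the L3 larval stage, when a few animals had begun to show divided vulval precursor cells. Cbr-ivph-3 is a LIN-15B-domain gene whose mutants have the Multivulva phenotype, in which extra vulval tissue forms. The mutant is represented by 1 strain and 1 allele, which introduces a premature stop codon, and every tissue of the animal is in each library.

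In Caenorhabditis, the vulva is made from a row of epidermal precursor cells. The gonadal anchor cell releases LIN-3, an EGF-like ligand, and the precursor nearest to it receives the strongest signal through the EGF receptor and Ras. That cell then signals to its neighbours through ligands of the DSL (Delta, Serrate, LAG-2) family, which activate Notch receptors, while Wnt signalling keeps the precursors competent to respond. Most roles given here are known from C. elegans.

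The libraries held 22817581 to 30865944 counts in Cbr-ivph-3 and 24625819 to 25760385 counts in AF16. Levels are given in CPM, counts scaled to a common library size by TMM, a method that evens out differences in composition between libraries. A gene was called when its adjusted p in edgeR was under 0.05. Of 14241 genes with enough counts to be tested, 21.5% were called, 11.7% higher and 9.8% lower in the mutant, so a called gene is common in this comparison. The targeted gene, Cbr-ivph-3 (WBGene00026246), had 21.0 ± 0.0667 CPM in the mutant and 34.7 ± 1.76 CPM in AF16 (SD, n = 3 each). Its transcript is still made with a stop codon, so this level is a weak check of the labels. Cbr-ivph-3 replicate 1 stood apart: its median absolute log2 difference from the mean of the other replicates of its genotype was 0.501 over genes, against 0.260 and 0.263 in Cbr-ivph-3 replicates 2 and 3 and 0.117 to 0.185 in AF16.

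The EGF ligand gene Cbr-lin-3 was about 2-fold more abundant in the mutant larvae, and Cbr-lin-7, a gene for a PDZ protein that in C. elegans holds the EGF receptor LET-23 on the basolateral side of the precursor cell, was at about 0.473 of its wild-type level. Cbr-dsl-3, a low-count gene of the DSL family of Notch ligands, had higher values in the mutant but did not pass the test. Of the 3 genes, 2 were called, 1 in each direction, which with so few genes is a description only. Over all tested genes 21.5% were called. Among genes the study listed for Cbr-ivph-3, as Cbr-lin-3 and Cbr-lin-7 are, 78.6% were. Among those listed for Cbr-spr-4 or Cbr-htz-1 but not for Cbr-ivph-3, as Cbr-dsl-3 is, 0.488% were. In each of the 3 genes the libraries of the genotypes did not overlap, as was also so in 42.3% of tested genes (22.2% with the mutant above and 20.1% with the mutant below).

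**Figure D1:**
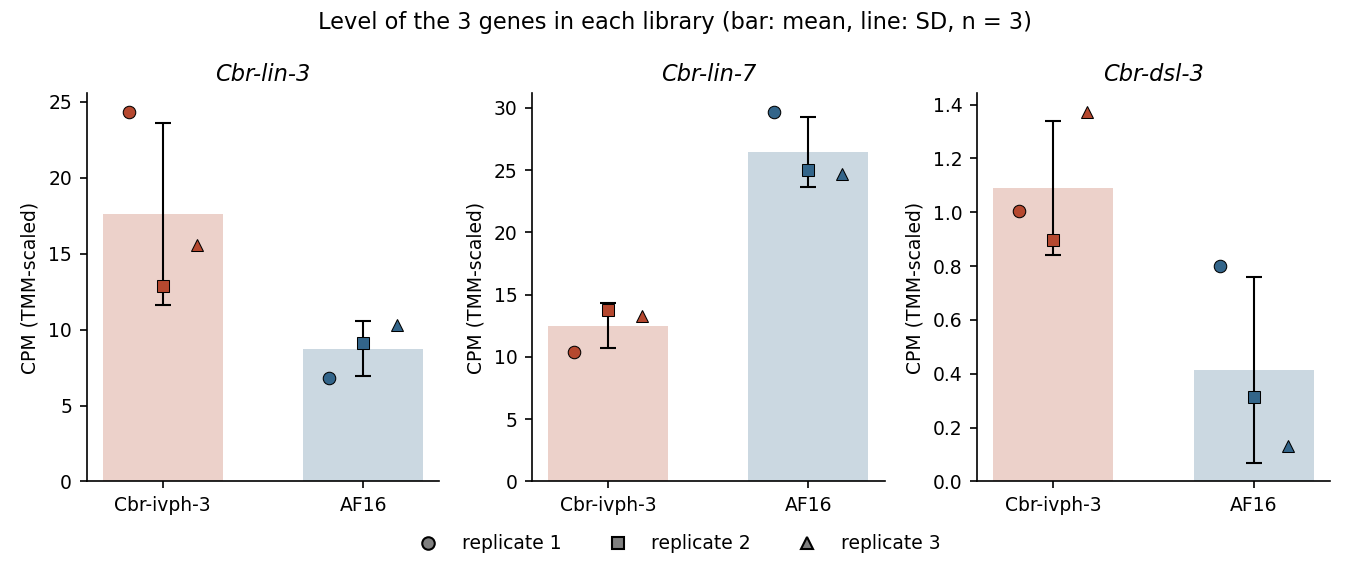
Level of Cbr-lin-3, Cbr-lin-7 and Cbr-dsl-3 in CPM (y axis, starting at 0 and separate for each gene) in the Cbr-ivph-3 and AF16 libraries. Points are libraries, shaped by replicate number, bars are means and lines are SD (n = 3 each). Cbr-lin-3 spans 12.9 to 24.3 CPM in Cbr-ivph-3 and 6.80 to 10.3 CPM in AF16, Cbr-lin-7 spans 10.4 to 13.8 CPM in Cbr-ivph-3 and 24.7 to 29.7 CPM in AF16, and the Cbr-dsl-3 points all lie under 1.4 CPM.

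Cbr-lin-3 (locus CBG05996) lies on chromosome IV from 7334025 to 7336085 in the RefSeq table of assembly CB4, a span of 2061 bases that no other gene of the table overlaps. The study counted reads on genome release WS279, which was not compared with CB4 here. Cbr-lin-3 had 24.3, 12.9 and 15.6 CPM in Cbr-ivph-3 replicates 1, 2 and 3, from 703, 345 and 556 counts. In AF16 replicates 1, 2 and 3 it had 6.80, 9.10 and 10.3 CPM, from 153, 204 and 236 counts. No mutant library fell among those of AF16, with Cbr-ivph-3 replicate 1 highest and the nearest pair only a little apart (12.9 CPM in Cbr-ivph-3 replicate 2 and 10.3 CPM in AF16 replicate 3).

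The means were 17.6 ± 5.99 CPM in Cbr-ivph-3 and 8.75 ± 1.79 CPM in AF16 (SD, n = 3 each). Cbr-lin-3 thus had a log2 fold change of 1.01 (SE 0.28, quasi-likelihood test in edgeR, adjusted p = 0.0456). The 95% interval of the fold ran from 1.27 to 3.19. Counting error was small beside this spread: the pooled counts, 1604 in Cbr-ivph-3 and 593 in AF16, gave a ratio of 2.01 with an exact interval of 1.82 to 2.21 that covers counting error alone. The gene's biological coefficient of variation was 25.7%, close to the 23.4% fitted for genes at its level.

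The call of Cbr-lin-3 stood near the threshold. It was lost in 8 of 14 alternatives, among them those with DESeq2's size factors (adjusted p = 0.0530 in edgeR), with limma-voom (0.0558), with no low-count filter (0.0617), and without Cbr-ivph-3 replicate 3 (0.0786) or AF16 replicate 1, 2 or 3 (0.184, 0.151 and 0.115). Without each of those libraries, calls over all tested genes also fell, from 3062 to between 1240 and 1618. The call was kept with DESeq2, the tool of the study (log2 fold change 0.97, adjusted p = 0.0159). The study also set a cutoff on the fold change, which was not part of a call here. In edgeR the call was kept with upper-quartile scaling (0.0285), library totals (0.0107) and at least 10 counts in every library (0.0442). It was also kept without Cbr-ivph-3 replicate 1 or 2 (0.00748 and 0.0417). The adjusted p ranged from 0.00748 to 0.184 over the 14. Its log2 fold change was positive in each of them, from 0.70 to 1.30. The lowest, 0.70, was obtained without Cbr-ivph-3 replicate 1, where the adjusted p was 0.00748 and 59.7% of tested genes were called.

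Marker genes of other tissues and of the molting cycle also differed by genotype. The summed level of 10 germline genes was 826 to 1350 CPM in Cbr-ivph-3 and 435 to 455 CPM in AF16, and that of 9 molting-cycle genes was 1615 to 3013 CPM in Cbr-ivph-3 and 5498 to 6304 CPM in AF16. Within the lists, 6 of the 10 germline genes were called higher (11.7% of tested genes were) and 5 of the 9 molting genes were called lower (9.8% of tested genes were), and no listed gene was at 0 in every library. Of 46 marker names searched, 28 could be paired with counts, all of them genes in the study's lists of called genes. The markers are thus not a fair sample of their tissues. Every called marker was among the 22 that the study listed for Cbr-ivph-3 on these libraries, and 0 of the 7 others were called in edgeR. Of all tested genes so listed, 78.6% were called. The shares of 11.7% and 9.8% are therefore no background for these markers. The germline genes were not uniform: Cbr-pgl-1, Cbr-rec-8 and Cbr-htp-3 were not called and had log2 fold changes of -0.27, -0.01 and -0.04, but without Cbr-ivph-3 replicate 1 they were called lower, at -1.29, -1.03 and -0.73, where 28.6% of tested genes were called lower. Summed levels of intestine genes (3 genes) were 344 to 542 CPM in Cbr-ivph-3 and 1206 to 1242 CPM in AF16, of body wall muscle genes (2 genes) 1063 to 3040 CPM in Cbr-ivph-3 and 3767 to 4127 CPM in AF16, and of pharynx genes (2 genes) 140 to 607 CPM in Cbr-ivph-3 and 662 to 1113 CPM in AF16. All 3 intestine genes and 2 of 3 hypodermis genes were called lower, and the 4 muscle and pharynx genes had adjusted p of 0.0521 to 0.132 in edgeR. No neuron marker could be paired with counts. For 3 hypodermis genes the sums overlapped, at 1478 to 2465 CPM in Cbr-ivph-3 and 1680 to 2089 CPM in AF16. In Cbr-ivph-3 replicate 1, where Cbr-lin-3 was 0.78 higher on the log2 scale than in the mean of replicates 2 and 3, the median over the germline, molting, intestine, muscle and pharynx genes was also higher, by 0.66, 0.83, 0.42, 1.31 and 2.01, while that of the hypodermis genes was -0.26. The part of these tissues in the levels of Cbr-lin-3, Cbr-lin-7 and Cbr-dsl-3 was not tested, and in whole animals fewer cells of a type and less RNA per cell cannot be told apart.

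Cbr-lin-7 (locus CBG11102) lies on chromosome II from 4592533 to 4595640 in the same table, a span of 3108 bases with no overlapping gene. Its level was 10.4, 13.8 and 13.3 CPM in Cbr-ivph-3 replicates 1, 2 and 3, from 301, 369 and 475 counts. In AF16 replicates 1, 2 and 3 the level was 29.7, 24.99 and 24.7 CPM, from 667, 560 and 564 counts. The genotypes were well separated, and in contrast to Cbr-lin-3, Cbr-ivph-3 replicate 1 was the lowest of the mutant libraries.

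The means of Cbr-lin-7 were 12.5 ± 1.82 CPM in Cbr-ivph-3 and 26.5 ± 2.79 CPM in AF16 (SD, n = 3 each). On the log2 scale its fold change was -1.08 (SE 0.16, quasi-likelihood test in edgeR, adjusted p = 0.00543), a fold of 0.473 with a 95% interval from 0.364 to 0.614. Cbr-lin-7 was called lower in each of 14 alternatives, with log2 fold changes from -1.17 to -0.76 and adjusted p from 5.8e-08 to 0.0321. Its biological coefficient of variation was 16.98%, under the 22.3% fitted for genes at its level.

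CBG11101 (WBGene00032282), the gene before Cbr-lin-7 with a gap of 754 bases, was the one neighbour of the 3 genes that could be paired with a row of counts. It had 18.2 ± 4.38 CPM in Cbr-ivph-3 and 24.9 ± 1.27 CPM in AF16 (SD, n = 3 each), with a log2 fold change of -0.45 and an adjusted p of 0.152 from edgeR, so it was not called. The difference between the fold changes of CBG11101 and Cbr-lin-7 was not tested.

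Cbr-dsl-3 (locus CBG13573) lies on chromosome IV from 17425259 to 17426389 in the RefSeq table, a span of 1131 bases with no overlapping gene. It had 29, 24 and 49 counts in Cbr-ivph-3 replicates 1, 2 and 3, or 1.004, 0.896 and 1.37 CPM. In AF16 replicates 1, 2 and 3 it had 18, 7 and 3 counts, or 0.800, 0.312 and 0.131 CPM. The genotypes did not overlap, but AF16 replicate 1 (0.800 CPM) came close to Cbr-ivph-3 replicate 2 (0.896 CPM), and the exact 95% intervals of these 2 counts, 15.4 to 35.7 for Cbr-ivph-3 replicate 2 and 10.7 to 28.4 for AF16 replicate 1, overlapped.

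The means of Cbr-dsl-3 were 1.09 ± 0.250 CPM in Cbr-ivph-3 and 0.415 ± 0.346 CPM in AF16 (SD, n = 3 each). Its log2 fold change was 1.39 (SE 0.57), with an unadjusted p of 0.0457 and an adjusted p of 0.132 in edgeR. An unadjusted p under 0.05 was reached by 35.6% of tested genes. The 95% interval of the fold, 1.02 to 6.74, was wide, and the pooled counts, 102 in Cbr-ivph-3 and 28 in AF16, gave a ratio of 2.70 with an exact counting interval of 1.76 to 4.26. The coefficient of variation of Cbr-dsl-3 was 41.2%, against 33.7% fitted at its level, and counting error alone was 57.7% at its lowest count.

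Cbr-dsl-3 passed the test in 1 of 13 alternatives, without Cbr-ivph-3 replicate 1, where its log2 fold change was 1.46 (adjusted p = 0.0387 from edgeR) and 59.7% of tested genes were called. Without AF16 replicate 1 the log2 fold change was 2.24, and without AF16 replicate 3 it was 0.93, so the value depended on single wild-type libraries with few counts. Genes listed by the study for Cbr-spr-4 or Cbr-htz-1 but not for Cbr-ivph-3, as Cbr-dsl-3 is, were rarely called in these libraries, 4 of 820 or 0.488%, whereas 78.6% of the 2910 genes listed for Cbr-ivph-3 were called. These lists were made partly on these same libraries, so the shares describe how the genes were chosen.

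**Figure D2:**
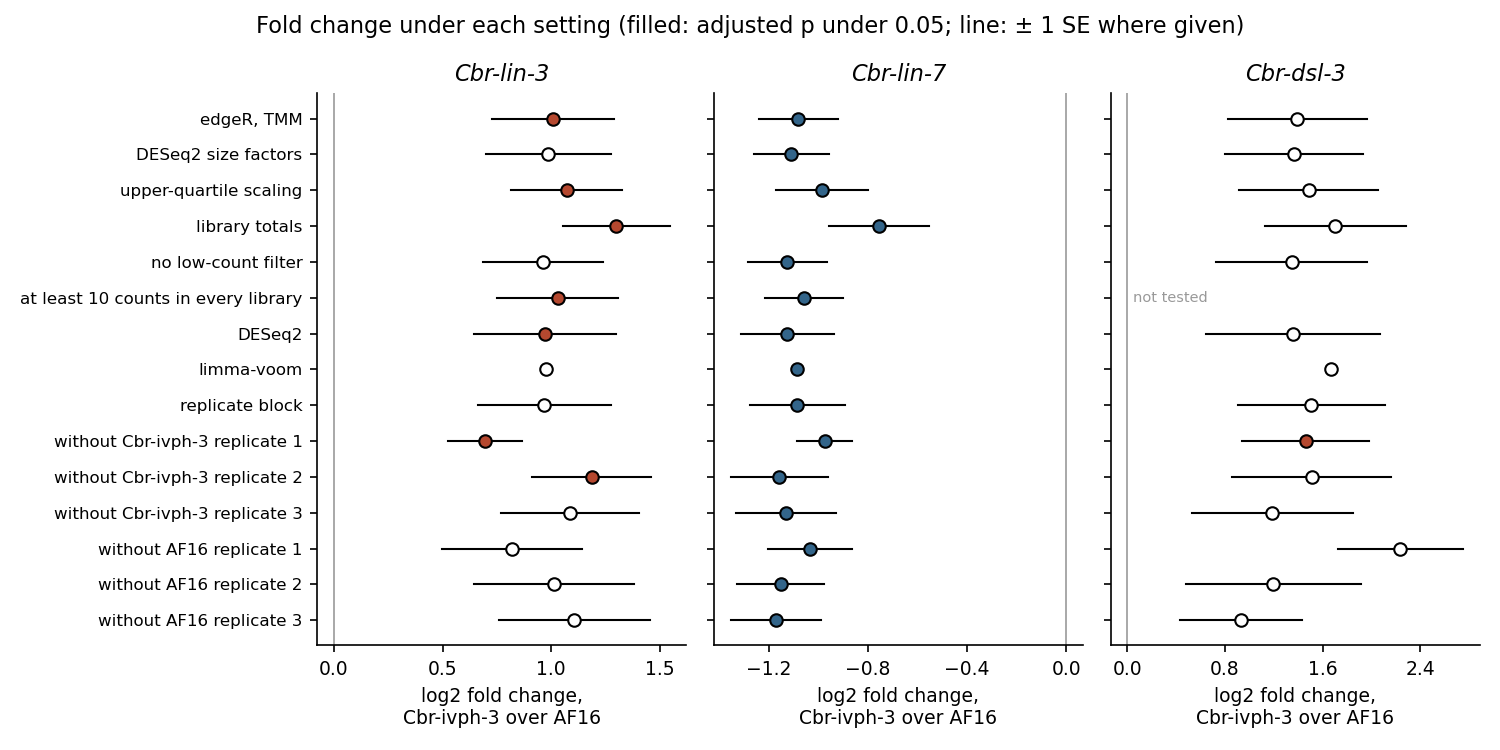
Log2 fold change, Cbr-ivph-3 over AF16 (x axis), of each gene under each processing setting (rows), with lines for ± 1 SE where one was computed. Filled points had an adjusted p under 0.05. Cbr-lin-7 is filled in each row, Cbr-lin-3 in 6 of its 14 alternatives and Cbr-dsl-3 in 1 of 13, and no point crosses 0.

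Ratios of counts within a library do not depend on how libraries are scaled. The Cbr-lin-3 to Cbr-lin-7 ratio was 2.33, 0.935 and 1.17 in Cbr-ivph-3 replicates 1, 2 and 3. In AF16 replicates 1, 2 and 3 it was 0.230, 0.365 and 0.419. The ligand gene thus had about as many counts as Cbr-lin-7, or more, in the mutant, and fewer than Cbr-lin-7 in each wild-type library, without overlap. The difference of the log2 ratios was 2.06, or 4.17-fold (two-sided exact permutation test, p = 0.1, the smallest that 3 against 3 libraries can give). It ranged from 1.68 to 2.33 when single libraries were left out. Since counts depend on transcript length, the ratio compares genotypes and not the levels of the 2 genes. Cbr-lin-3 was called higher and Cbr-lin-7 lower in these same libraries. The ratio therefore restates their 2 fold changes and is not separate evidence.

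The ratio of Cbr-dsl-3 to the summed counts of 4 Notch receptor genes was less clear. On the log2 scale it was -6.33, -4.82 and -4.20 in Cbr-ivph-3 replicates 1, 2 and 3, and -5.87, -6.78 and -8.19 in AF16 replicates 1, 2 and 3. The genotypes overlapped, because Cbr-ivph-3 replicate 1 fell below AF16 replicate 1. The difference of the means was 1.83 (two-sided exact permutation test, p = 0.2), and it was 1.21 without AF16 replicate 3 and 2.43 without Cbr-ivph-3 replicate 1. The ratio between the ligand genes themselves, Cbr-dsl-3 to Cbr-lin-3, was -4.58, -3.82 and -3.49 in Cbr-ivph-3 and -3.05, -4.77 and -6.08 in AF16, with a difference of 0.67 (two-sided exact permutation test, p = 0.6) that was -0.051 without AF16 replicate 3. The 3 ratios form a family of 3 exact permutation tests, and with 3 against 3 libraries no p in it can fall below 0.1.

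**Figure D3:**
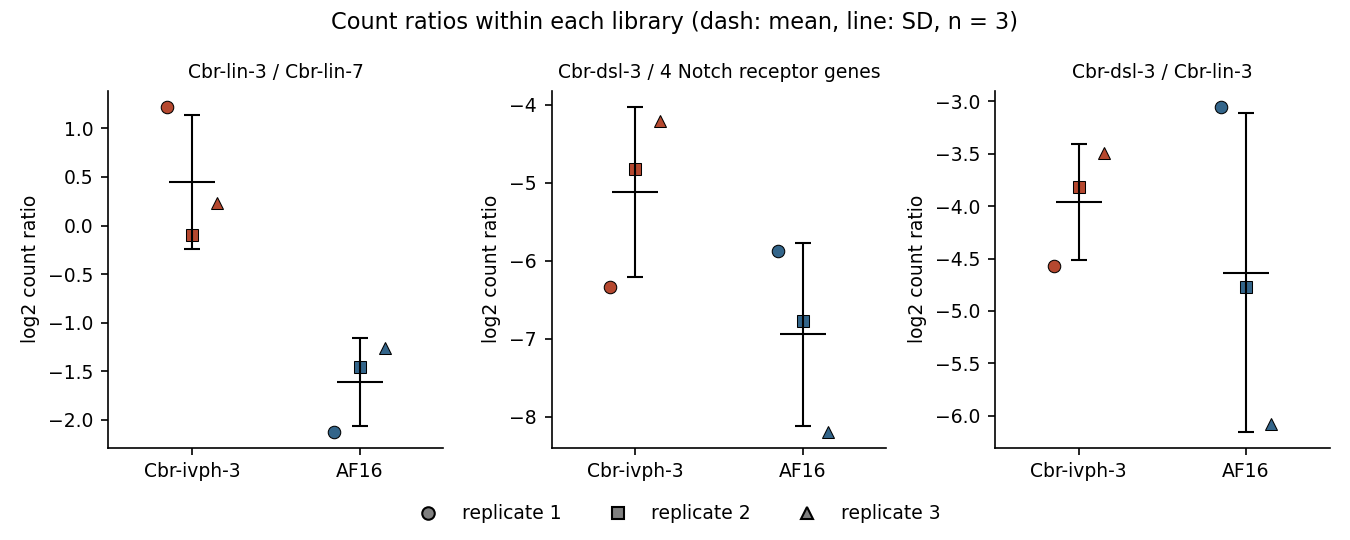
Log2 ratio of counts within each library (y axes, separate scales) for Cbr-lin-3 over Cbr-lin-7, Cbr-dsl-3 over 4 Notch receptor genes, and Cbr-dsl-3 over Cbr-lin-3, in Cbr-ivph-3 and AF16. Points are libraries, dashes are means and lines are SD (n = 3 each). The Cbr-lin-3 to Cbr-lin-7 ratios do not overlap between genotypes, and the other ratios do.

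The neighbourhood of the 3 genes in their pathways was described next. Of 39 names of EGF-Ras genes searched, 8 could be paired with a row of counts, and of 32 Notch names, 10 gave 12 genes. Only genes in the study's lists of called genes could be paired, so the genes found are not a fair sample of the pathways. In the EGF-Ras group, Cbr-lin-3 and Cbr-sem-5 were called higher, Cbr-lin-7 was called lower and 5 genes were not called, with a median log2 fold change of -0.22 against 0.06 over all tested genes. Over all tested genes 21.5% were called, but that share is no background for these 3 of 8 genes, or for the 4 of 12 called Notch genes. Of the genes that the study listed for Cbr-ivph-3, 78.6% were called. Of those it listed for Cbr-spr-4 or Cbr-htz-1 but not for Cbr-ivph-3, 0.488% were. In the Notch group, Cbr-osm-7 was called higher, Cbr-osm-11, Cbr-ref-1 and Cbr-sel-7 were called lower and 8 genes were not called, also with a median of -0.22. All 7 called genes were among those the study listed for Cbr-ivph-3 on these libraries, whereas of the 2 EGF-Ras and 8 Notch genes not so listed, 0 were called by edgeR. Of these 10 genes, 1, Cbr-dsl-3, had an unadjusted p under 0.05, and DESeq2 and limma-voom also called 0. Over all tested genes the 2 tools called 23.9% and 21.2%. The absence of calls was close to fixed by the choice of genes, since the study, which used DESeq2, had not listed them on these libraries. Without Cbr-ivph-3 replicate 1, 7 of the 10 were called, where 59.7% of tested genes were.

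**Figure D4:**
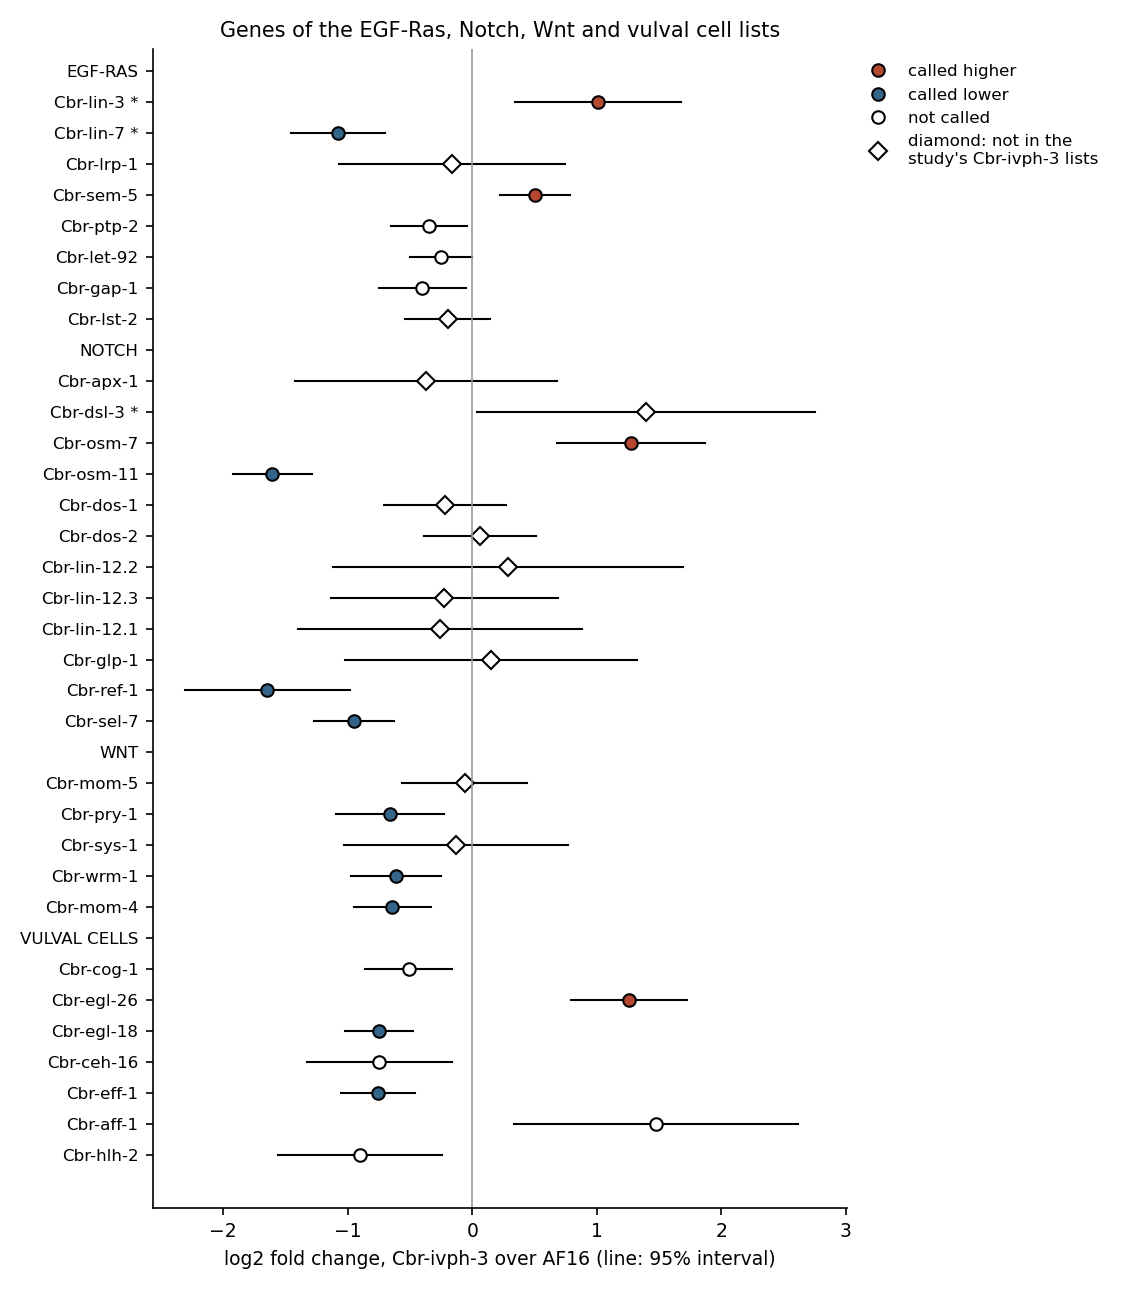
Log2 fold change, Cbr-ivph-3 over AF16 (x axis), with 95% intervals, for the genes of the EGF-Ras, Notch, Wnt and vulval cell lists that could be paired with counts. Filled points were called, diamonds mark genes outside the study's lists for Cbr-ivph-3, and asterisks mark Cbr-lin-3, Cbr-lin-7 and Cbr-dsl-3. Cbr-osm-11 and Cbr-ref-1 lie lowest, and the 4 Notch receptor genes have wide intervals around 0.

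Downstream of the receptor, Cbr-sem-5, the gene of the GRB2-like adaptor that couples the EGF receptor to Ras, had 40.8, 47.4 and 46.5 CPM in Cbr-ivph-3 and 32.7, 30.8 and 31.5 CPM in AF16. The genotypes did not overlap, as in 42.3% of tested genes, and the log2 fold change was 0.50 (SE 0.12, edgeR adjusted p = 0.0260). The call was lost in 7 of 14 alternatives, among them each left-out library other than Cbr-ivph-3 replicate 1, with adjusted p up to 0.127. Without each of those libraries, calls over all tested genes also fell, from 3062 to between 1240 and 1637. Cbr-ptp-2, for an SHP2-like phosphatase that acts positively in the pathway, had 65.2, 59.1 and 55.8 CPM in Cbr-ivph-3 and 82.9, 70.0 and 76.6 CPM in AF16 (log2 fold change -0.35, adjusted p = 0.101).

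Cbr-let-92, for the catalytic subunit of the phosphatase PP2A, had 256, 254 and 245 CPM in Cbr-ivph-3 and 297, 304 and 299 CPM in AF16 (log2 fold change -0.25, adjusted p = 0.138). Its libraries were separated by genotype, as in 42.3% of tested genes, with little spread, but the difference was small. Among the inhibitors, Cbr-gap-1, for a Ras GTPase-activating protein, had 45.8, 43.7 and 41.9 CPM in Cbr-ivph-3 and 65.4, 48.2 and 59.8 CPM in AF16 (log2 fold change -0.40, adjusted p = 0.101), and Cbr-lst-2, for a negative regulator of EGF signalling, had a log2 fold change of -0.20 (adjusted p = 0.375). Cbr-lrp-1, for an endocytic receptor related to the LDL receptor, had 501, 218 and 203 CPM in Cbr-ivph-3 and 434, 271 and 325 CPM in AF16, with Cbr-ivph-3 replicate 1 above every other library.

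Without Cbr-ivph-3 replicate 1, all 8 EGF-Ras genes were called, 2 higher (Cbr-lin-3 and Cbr-sem-5) and 6 lower. In that comparison 59.7% of tested genes were called, 31.1% higher and 28.6% lower.

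Of the Notch ligands, Cbr-apx-1, which like Cbr-dsl-3 belongs to the DSL family, had 21.6, 6.53 and 7.82 CPM in Cbr-ivph-3 and 15.2, 16.2 and 15.1 CPM in AF16. The wild-type libraries were close together, while the mutant libraries lay on both sides of them (log2 fold change -0.37, adjusted p = 0.592). Cbr-apx-1 had a log2 fold change of -1.11 without Cbr-ivph-3 replicate 1, where it was called lower (adjusted p = 8.2e-05 from edgeR), as 28.6% of tested genes were.

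Secreted co-ligands with a DOS motif, which in C. elegans act with DSL ligands on Notch receptors, differed in direction. Cbr-osm-11 fell to 298, 236 and 254 CPM in Cbr-ivph-3, against 806, 798 and 795 CPM in AF16, and Cbr-osm-7 had 137, 82.2 and 83.1 CPM in Cbr-ivph-3 and 42.7, 33.9 and 48.4 CPM in AF16. Neither gene overlapped between genotypes, as 42.3% of tested genes did not, and the spread of Cbr-osm-11 was small. The log2 fold change of Cbr-osm-11 was -1.61 (SE 0.13, adjusted p = 0.000842 from edgeR) and it was called in each of 14 alternatives. That of Cbr-osm-7 was 1.27 (SE 0.25, adjusted p = 0.0150 from edgeR), and it was not called when AF16 replicate 1, 2 or 3 was left out (adjusted p = 0.0782, 0.0832 and 0.0587). Without each of those libraries, 1240 to 1431 of all tested genes were called, against 3062 with all libraries. Cbr-dos-1 and Cbr-dos-2 had log2 fold changes of -0.22 and 0.06 (adjusted p = 0.492 and 0.850).

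The 4 Notch receptor genes were Cbr-glp-1 and 3 copies of Cbr-lin-12, and because they resemble one another, reads could be split among them. Cbr-glp-1, whose product in C. elegans is best known for keeping germline stem cells dividing, had 60.0, 16.9 and 17.8 CPM in Cbr-ivph-3 and 30.5, 26.4 and 28.5 CPM in AF16. Cbr-lin-12.1 had 11.8, 4.52 and 3.59 CPM in Cbr-ivph-3 and 9.74, 5.49 and 8.54 CPM in AF16. In both, Cbr-ivph-3 replicate 1 was the highest of all libraries and replicates 2 and 3 the lowest. Log2 fold changes of the 4 genes were 0.15 for Cbr-glp-1, -0.26 for Cbr-lin-12.1, 0.29 for Cbr-lin-12.2 and -0.22 for Cbr-lin-12.3, with adjusted p from 0.715 to 0.859, and 95% intervals that ran from -1.40 to 1.69 over the 4 genes. Without Cbr-ivph-3 replicate 1 the log2 fold changes were -0.72 for Cbr-glp-1, -0.99 for Cbr-lin-12.1 and -0.75 for Cbr-lin-12.3, all called lower (edgeR adjusted p = 0.000341, 0.00765 and 0.0127), and -0.46 for Cbr-lin-12.2, which was not called (0.378). Without that library 28.6% of tested genes were called lower. The signs of Cbr-glp-1 and Cbr-lin-12.2 thus turned with that library. Over these genes, Cbr-ivph-3 replicate 1 exceeded the mean of replicates 2 and 3 by a median of 1.52 on the log2 scale, against -0.05 over all tested genes.

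In the nucleus, Cbr-ref-1, for a bHLH factor of a family transcribed in response to Notch in C. elegans, had 3.39, 1.75 and 2.27 CPM in Cbr-ivph-3 and 9.03, 6.92 and 7.31 CPM in AF16. Its log2 fold change was -1.65 (SE 0.28, adjusted p = 0.00875 from edgeR). Cbr-sel-7, for a nuclear protein that promotes LIN-12 activity in C. elegans, had 9.97, 9.33 and 10.6 CPM in Cbr-ivph-3 and 20.6, 17.2 and 20.0 CPM in AF16, a log2 fold change of -0.95 (SE 0.14, adjusted p = 0.00490). Neither gene overlapped between genotypes, as 42.3% of tested genes did not, and both were called lower in each of 14 alternatives. Without Cbr-ivph-3 replicate 1, 9 of the 12 Notch genes were called, 2 higher (Cbr-dsl-3 and Cbr-osm-7) and 7 lower, against 59.7% of tested genes called, 31.1% higher and 28.6% lower.

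**Figure D5:**
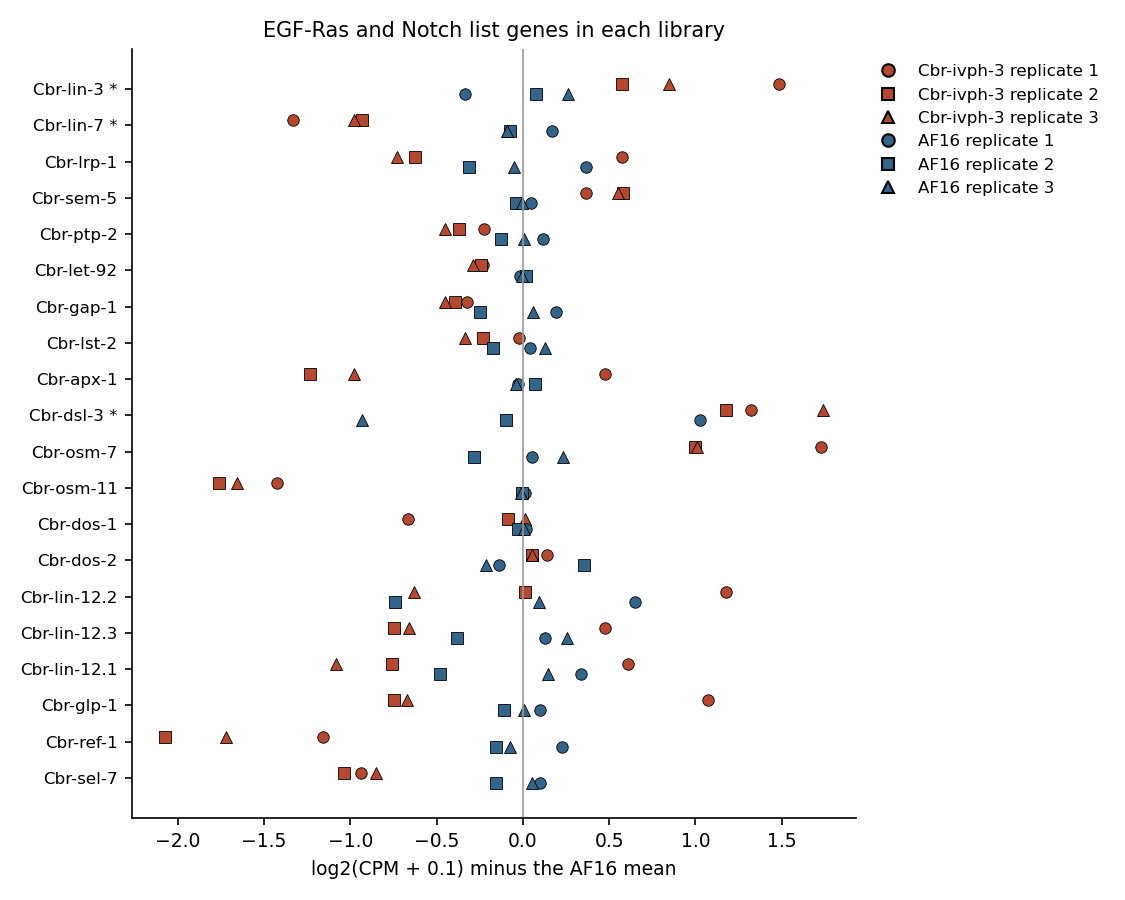
Level of each EGF-Ras and Notch gene in each library as log2(CPM + 0.1) minus the gene's AF16 mean (x axis), with Cbr-ivph-3 points above AF16 points in each row and the shape giving the replicate number. Asterisks mark Cbr-lin-3, Cbr-lin-7 and Cbr-dsl-3. For Cbr-osm-11, Cbr-ref-1 and Cbr-sel-7 the mutant libraries lie together to the left, whereas for Cbr-glp-1, Cbr-apx-1 and Cbr-lrp-1 Cbr-ivph-3 replicate 1 lies to the right of AF16 and replicates 2 and 3 to its left.

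The Wnt pathway was represented by 5 of 26 names searched, of which 3 were called lower and the other 2 were not called (median log2 fold change -0.61), where 9.8% of tested genes were called lower. The 3 were Cbr-pry-1 for an Axin-like scaffold (log2 fold change -0.66, adjusted p = 0.0450), Cbr-wrm-1 for a beta-catenin (-0.61, adjusted p = 0.0327) and Cbr-mom-4 for a kinase of the pathway (-0.64, adjusted p = 0.0158), all from edgeR and all listed by the study for Cbr-ivph-3 on these libraries. With libraries scaled by their totals 0 of the 5 were called, and 0 were called without Cbr-ivph-3 replicate 2 or 3 or AF16 replicate 1 or 3. Without each of those libraries, calls over all tested genes also fell, from 3062 to between 1240 and 1637. The log2 fold changes of the 3 genes were negative in each of 14 alternatives, from -0.87 to -0.31. Cbr-mom-5, for a Frizzled receptor, and Cbr-sys-1, for another beta-catenin, had log2 fold changes of -0.06 and -0.13 and were not called. Without Cbr-ivph-3 replicate 1 all 5 Wnt genes were called lower, where 28.6% of tested genes were, with Cbr-mom-5 at -0.34 and Cbr-sys-1 at -0.74 (edgeR adjusted p = 0.00661 and 0.000179).

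Genes that mark vulval cells and their shaping were represented by 7 of 21 names searched, all listed by the study for Cbr-ivph-3. Of the 7, 1 was called higher and 2 lower. Over all tested genes 21.5% were called, but over genes listed by the study for Cbr-ivph-3, as these 7 are, 78.6% were. Cbr-egl-26, needed for vulval morphogenesis in C. elegans, had 22.3, 34.0 and 35.3 CPM in Cbr-ivph-3 and 12.1, 12.8 and 13.3 CPM in AF16 (log2 fold change 1.26, SE 0.20, adjusted p = 0.00652 from edgeR). Cbr-egl-18, for a GATA factor of the precursor cells, had 32.9, 28.8 and 31.0 CPM in Cbr-ivph-3 and 51.9, 53.3 and 50.2 CPM in AF16 (log2 fold change -0.75, adjusted p = 0.00606). Cbr-eff-1, for a protein that fuses epidermal cells, had 39.8, 34.7 and 35.4 CPM in Cbr-ivph-3 and 66.4, 61.9 and 57.1 CPM in AF16 (log2 fold change -0.75, adjusted p = 0.00793).

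The genotypes did not overlap for these 3 genes, and each kept its call in 14 alternatives. The other 4 genes of this list also did not overlap, as 42.3% of tested genes did not, but were not called: the fusion gene Cbr-aff-1 (log2 fold change 1.48, adjusted p = 0.0716), the homeobox genes Cbr-cog-1 (-0.51, 0.0504) and Cbr-ceh-16 (-0.75, 0.0733), and the bHLH gene Cbr-hlh-2, used as an anchor cell marker (-0.90, 0.0608). Without Cbr-ivph-3 replicate 1 these 4 were called, where 59.7% of tested genes were, and the log2 fold change of Cbr-aff-1 was 0.73 (edgeR adjusted p = 0.00530). In C. elegans, egl-18 and eff-1 are also transcribed in other epidermal cells, so these whole-animal levels are not those of the vulval precursors alone.

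Genes whose levels followed each of the 3 genes most closely were found among 1824 genes with a symbol and a mean of at least 1 CPM, by Pearson's r of log2 CPM over 6 libraries. For Cbr-lin-3 they were the cuticle collagen genes Cbr-col-113 (0.995), Cbr-col-69 (0.987) and Cbr-col-14 (0.984), with Cbr-ora-1 (0.988) and Cbr-mrt-1.2 (0.983). For Cbr-lin-7 they were Cbr-coq-8 (0.998), Cbr-atad-3 (0.998), Cbr-haf-3 (0.998), Cbr-vha-5 (0.997) and Cbr-haf-9 (0.997). For Cbr-dsl-3 they were Cbr-mocs-1 (0.931), Cbr-sma-4 (0.925), Cbr-chup-1 (0.909), Cbr-cyp-35C1 (0.902) and Cbr-tat-4 (0.9001).

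An r above 0.9 was reached by 512 genes with Cbr-lin-7, by 91 with Cbr-lin-3 and by 5 with Cbr-dsl-3. All genes searched came from the study's lists of called genes, made in part on these same libraries. They are not a fair sample of all genes, and these counts depend on that choice. The 6 points are 3 libraries of each genotype, and the values share library, depth and scaling. They are a description of these libraries.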

How the data were processed

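The authors prepared libraries with a TruSeq RNA v2 kit and, per the submitters' processing notes and the study's methods, used MultiQC, STAR and featureCounts (versions not given in the sources used here) with genome release WS279 to deposit raw counts of read pairs per gene. Counting used a reverse-stranded setting, while the kit does not mark strand, so reads of a gene and of an antisense partner cannot be told apart. The 6 per-sample tables held the same deposited counts as the combined table of 23169 genes.

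Genotypes were compared in R 4.3.3 with edgeR 4.0.16 (TMM, filterByExpr, robust glmQLFit, glmQLFTest), with genotype as the only term and Benjamini-Hochberg adjustment over 14241 tested genes. The study used DESeq2, run here (1.42.0) as an alternative together with limma 3.58.1. Scripts were tested on simulated data. Standard errors were the size of the log2 fold change over the square root of F. Ratios of counts used a pseudocount of 0.5 and an exact permutation test (SciPy 1.17.1). Exact intervals have a confidence level of 95%, and they cover counting error only.

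The 3 genes and the pathway lists were chosen with earlier results of these data known. Named genes are the 3 genes, every EGF-Ras and Notch list gene paired with counts, called Wnt and vulval cell genes or up to 4 per list with the smallest p, the 5 genes most like each of the 3, neighbouring genes and Cbr-ivph-3. Cbr-mom-5, Cbr-sys-1 and some further vulval genes outside that rule are given to complete their lists. Symbols were paired with 1915 identifiers through the study's supplementary lists and a RefSeq table of assembly CB4 with 22727 genes. A planned ratio of Cbr-lin-3 to the EGF receptor gene was not run because the receptor gene was not paired with a row of counts. Alternatives were 3 other scalings, 2 filters, DESeq2, limma-voom, a replicate block and each library left out, and the Cbr-dsl-3 to Cbr-lin-3 ratio was added after seeing the data.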

Additional observations from a re-analysis of the deposited data

How the results depend on the processing

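Over all tested genes 3062 were called, 1667 higher and 1395 lower. Library totals gave 3297 higher and 646 lower and upper-quartile scaling 1833 higher and 1072 lower, with median log2 fold changes of 0.37 and 0.14 in place of 0.06. Leaving out single libraries gave 1240 to 8644 calls, the most without Cbr-ivph-3 replicate 1. Cbr-lin-7 kept its call in 14 of 14 alternatives. Cbr-lin-3 lost its call with DESeq2 size factors (log2 fold change 0.99), no low-count filter (0.96), limma-voom (0.97) and the replicate block (0.97), and ranged from 0.70 to 1.19 with single libraries left out. DESeq2 itself called Cbr-lin-3 higher (0.97). Cbr-dsl-3 ranged from 0.93 to 2.24 with single libraries left out, and could not be tested with at least 10 counts required in every library. The EGF-Ras list, 3 calls, had 1 with no low-count filter, 6 with DESeq2, 1 with the replicate block and 1 to 8 with single libraries left out. The Notch list, 4 calls, had 3 to 9 with single libraries left out, and the Wnt list, 3 calls, had 0 with library totals and 0 to 5 with single libraries left out. The Cbr-dsl-3 to Cbr-lin-3 ratio, 0.67, ranged from -0.051 without AF16 replicate 3 to 1.46 without AF16 replicate 1. The causes were not tested. The planned ratio of Cbr-lin-3 to the EGF receptor gene was not run.

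Replicate numbers were not treated as a pairing of libraries, since deviations of same-numbered libraries correlated across genes by 0.152, 0.174 and -0.067. With a replicate block, 2336 genes were called, Cbr-lin-3 had an adjusted p of 0.0857 from edgeR, and Cbr-lin-7 kept its call. Depth limits Cbr-dsl-3, with 3 to 18 counts in AF16 libraries. With 3 libraries of each genotype, exact tests of single ratios cannot go below p = 0.1.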
